A study of Mus musculus with 6 samples.

Results

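Peaks of thyroid hormone receptor α (TRα) assigned to 6 genes of the Mef2 and Notch families of myogenic control were examined in gastrocnemius muscle of mice. The 6 genes were Mef2a, Mef2c, Notch1, Notch3, Dll4 and Hes1, out of 395 genes that the deposited annotation names. They were named by 73 peaks, of 3812 peaks with a gene name and 491681 peaks in all. A peak was given to a gene when annotation text that follows it in the deposited table carried a RefSeq protein accession of that gene and of no other gene. Peaks whose text matched several genes were counted as without a gene name. The chromatin came from mice of 6 months (labelled youth), 15 months (mid) and 21 months (old), with 2 mice per age and 1 peak list per mouse. They are called young, middle-aged and old mice here, and paired values are given in the order of replicates 1 and 2. Genotype, strain and treatment are not given in the labels used here, and the same antibody to TRα was used in all 6 mice. Each list compares an immunoprecipitated library with the input library of the same mouse. Gastrocnemius is a mixed tissue of muscle fibres, satellite cells, vessels and connective tissue, so a change in the number of cells of a type and a change in occupancy per cell cannot be told apart.

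TRα is a nuclear receptor that binds DNA, usually as a partner of retinoid X receptors, at pairs of the half-site AGGTCA, and switches between repression and activation with its hormone. Mef2 proteins are MADS-box transcription factors that act with the MyoD family to turn on muscle genes, and in adult fibres they carry calcium and activity signals to the genes of slow and oxidative fibres. Notch receptors are cut when a ligand on a neighbouring cell engages them, and the freed intracellular part joins the DNA-binding protein Rbpj to turn on Hes and Hey repressors. In adult muscle this pathway keeps satellite cells, the stem cells of the fibre, quiescent, and it also patterns the vessels.

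Mef2c carried most of the peaks, and the windows upstream of its annotated starts are shown because a TRα half-site can be read in them directly. RefSeq promoter sequences of build GRCm38.p6 matched 5 of the 6 genes, all but Hes1, with 7 start windows of which 3 belonged to Mef2c. Each line gives the 250 bases before a start, 5′ to 3′ on the plus strand, and capitals mark TGACCT, the reverse complement of AGGTCA. The windows lie at chr13:83503784-83504033 (A), chr13:83523406-83523655 (B) and chr13:83573357-83573606 (C) for Mef2c and at chr2:119325534-119325783 for Dll4, all in GRCm38.p6.
Mef2c window A: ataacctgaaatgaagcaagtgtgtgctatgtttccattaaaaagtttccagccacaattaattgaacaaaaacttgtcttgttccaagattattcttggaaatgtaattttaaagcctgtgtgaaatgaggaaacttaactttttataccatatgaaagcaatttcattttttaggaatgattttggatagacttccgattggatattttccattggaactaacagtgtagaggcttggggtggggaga
Mef2c window B: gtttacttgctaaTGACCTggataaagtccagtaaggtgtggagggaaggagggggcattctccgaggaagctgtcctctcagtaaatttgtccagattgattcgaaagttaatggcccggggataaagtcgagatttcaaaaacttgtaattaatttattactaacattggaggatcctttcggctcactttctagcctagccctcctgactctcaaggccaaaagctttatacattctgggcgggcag
Mef2c window C: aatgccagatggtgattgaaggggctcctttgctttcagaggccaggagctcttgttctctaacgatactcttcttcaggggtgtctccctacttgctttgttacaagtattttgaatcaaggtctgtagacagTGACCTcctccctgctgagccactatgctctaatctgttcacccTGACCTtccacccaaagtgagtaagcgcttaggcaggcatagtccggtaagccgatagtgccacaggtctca
Dll4 window: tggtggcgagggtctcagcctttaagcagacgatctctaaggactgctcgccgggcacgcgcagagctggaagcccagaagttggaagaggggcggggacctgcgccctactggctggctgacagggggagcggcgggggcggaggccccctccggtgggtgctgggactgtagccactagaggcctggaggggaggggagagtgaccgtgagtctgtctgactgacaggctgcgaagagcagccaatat
The half-site AGGTCA was searched on both strands. It occurred at base 14 of Mef2c window B and at bases 135 and 179 of window C, counted from the 5′ end. These were 2 of the 7 windows of the 5 genes, both of Mef2c, and 14.0% of the 32851 RefSeq windows of the same length held at least 1 copy. With 7 windows these shares are too uncertain to compare, and pairs of half-sites were not analysed. Mef2c window A and the windows of Dll4, Mef2a, Notch1 and Notch3 held none. The peaks are in another build, GRCm39, so whether a peak covers any of these bases was not analysed here.

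The lists held 29405 to 106152 peaks, and 1.16% to 4.27% of the peaks of a list had a q of at most 0.05. The list of replicate 2 at 15 months was the shortest. Replicate 1 at 6 months had the weakest enrichment, with a highest fold over input of 269 against 532 to 1543 in the other lists. Peak lists do not measure expression, so the tissue label could not be checked against markers. Of 29 marker genes of muscle, satellite, vascular, fibroblast and immune cells, 4 were named by a peak (Kdr, Myh11, Pdgfra and Pdgfrb), and no marker of muscle fibres was among them. Only genes with long annotation text are named, so a marker without a named peak may still have peaks.

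The peaks of the 6 genes were shallow and lay in the middle of their lists. Their pileup, which counts the fragments that cover the summit, was 3 for 16 peaks, 4 for 31, 5 for 15, 6 for 10 and 7 for 1. Their fold enrichment, the authors' ratio of this pileup to the local input background, ran from 2.22 to 3.82. Its median was 2.86, against a median of 2.82 over all peaks. The ratio was taken to have 1 added to both terms, which makes it lower than the plain ratio at so few fragments. Ranked within its own list, the median peak of these genes stood at the 48.8th percentile of fold, where the median over all peaks was 51.2. The highest stood at a percentile of 95.1. By list the median ran from the 25.1th percentile in replicate 1 at 6 months (9 peaks) to the 62.1th in replicate 2 at 15 months (6 peaks). The local input background was within 1% of the lowest level of the list for 34 of the 73 peaks and at most 1.84 times that level for the rest.

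None of the 73 peaks reached a q of at most 0.05, the authors' false discovery estimate, and a count of 0 among 73 allows a share of up to 4.11%. Over all peaks this share was 2.21%, so the absence lies within what the number of peaks can show. The lowest q was 0.173, at 2 Mef2c peaks of replicate 1 at 15 months. At the level of genes, 54 of the 395 named genes had at least 1 such peak (13.7%), and 0 of these 6 did.

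**Figure D1:**
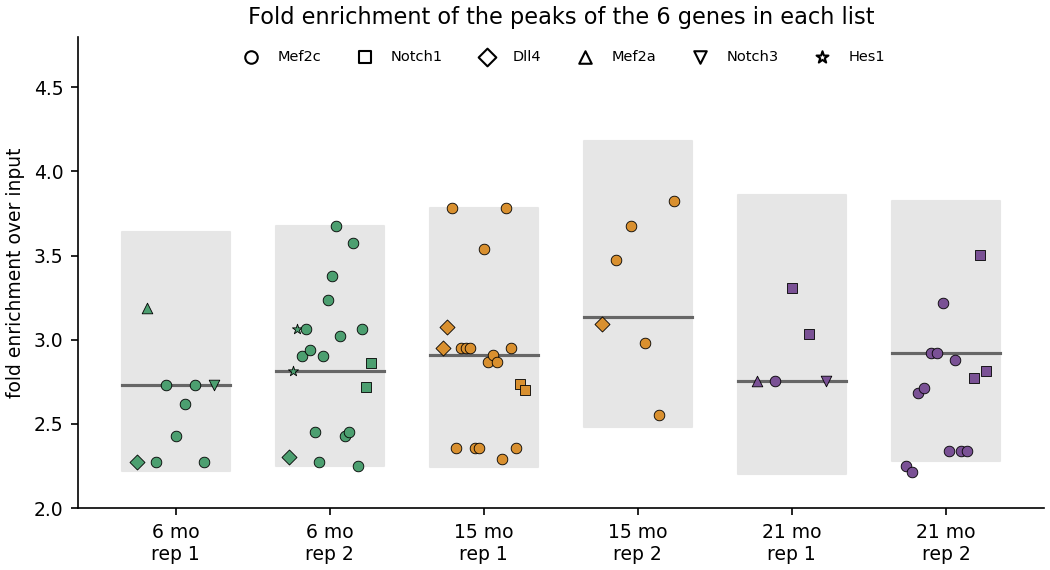
Fold enrichment over input (y axis) of every peak assigned to the 6 genes, by mouse (x axis), with symbols for genes and colours for ages. Grey bands span the 5th to 95th percentile of all peaks of that list and dark lines its median, and the 73 points lie between 2.22 and 3.82, on both sides of the medians.

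Among the transcription factors, Mef2c, which in muscle acts downstream of the MyoD family and in fibres drives activity-dependent genes, had 53 of the 73 peaks and was the only one of the 6 genes with peaks in all 6 mice. Peaks in all 6 mice were found for 18.5% of the named genes. By number of peaks Mef2c ranked 5th of the 395 genes. Its peaks lay on chromosome 13 between 83495146 and 83741124 (GRCm39), a stretch of 246 kb in which every peak of every list was assigned to Mef2c. The nearest peaks without a gene name lay 4.01 kb before and 6.21 kb after it. The gene part (exon, intron or flank) at these positions was not analysed here.

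The young mice had 6 and 15 peaks of Mef2c, the middle-aged mice 15 and 5, and the old mice 1 and 11. Scaled to 10000 peaks of the list, the values were 0.759 and 1.41 in young, 1.51 and 1.70 in middle-aged, and 0.109 and 1.28 in old mice. Replicate 1 at 21 months was far below the other 5 mice, and the ranges of 6 and 21 months overlapped. Its 95% exact Clopper-Pearson interval ran from 0.00276 to 0.608 per 10000, and that of replicate 2 at the same age from 0.639 to 2.29, so these mice of one age did not overlap in counting error. The interval of replicate 1 at 21 months did overlap those of replicate 1 at 6 months (0.279 to 1.65) and replicate 2 at 15 months, but not the others. Such intervals cover counting error only. Both mice at 15 months were above the other 4, but with an interval of 0.552 to 3.97 in replicate 2 at 15 months this order is within counting error.

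The mean per 10000 was 1.09 ± 0.462 in young, 1.60 ± 0.136 in middle-aged and 0.694 ± 0.827 in old mice (SD, n = 2 each). Pearson's r with age was -0.22 (two-sided exact permutation p = 0.744 over 90 assignments of ages to mice, adjusted p = 1 over the 395 named genes), and Spearman's rho came to -0.24 (p = 0.711 in the exact permutation, adjusted p = 1). When the young mice, whose age is farthest from the median, were left out, r was -0.74, from 2 mice at each age left, and was not tested. The sign rested on 1 mouse, since r was 0.44 without replicate 1 at 21 months. No trend with age was therefore detected at Mef2c beyond the spread between mice.

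**Figure D2:**
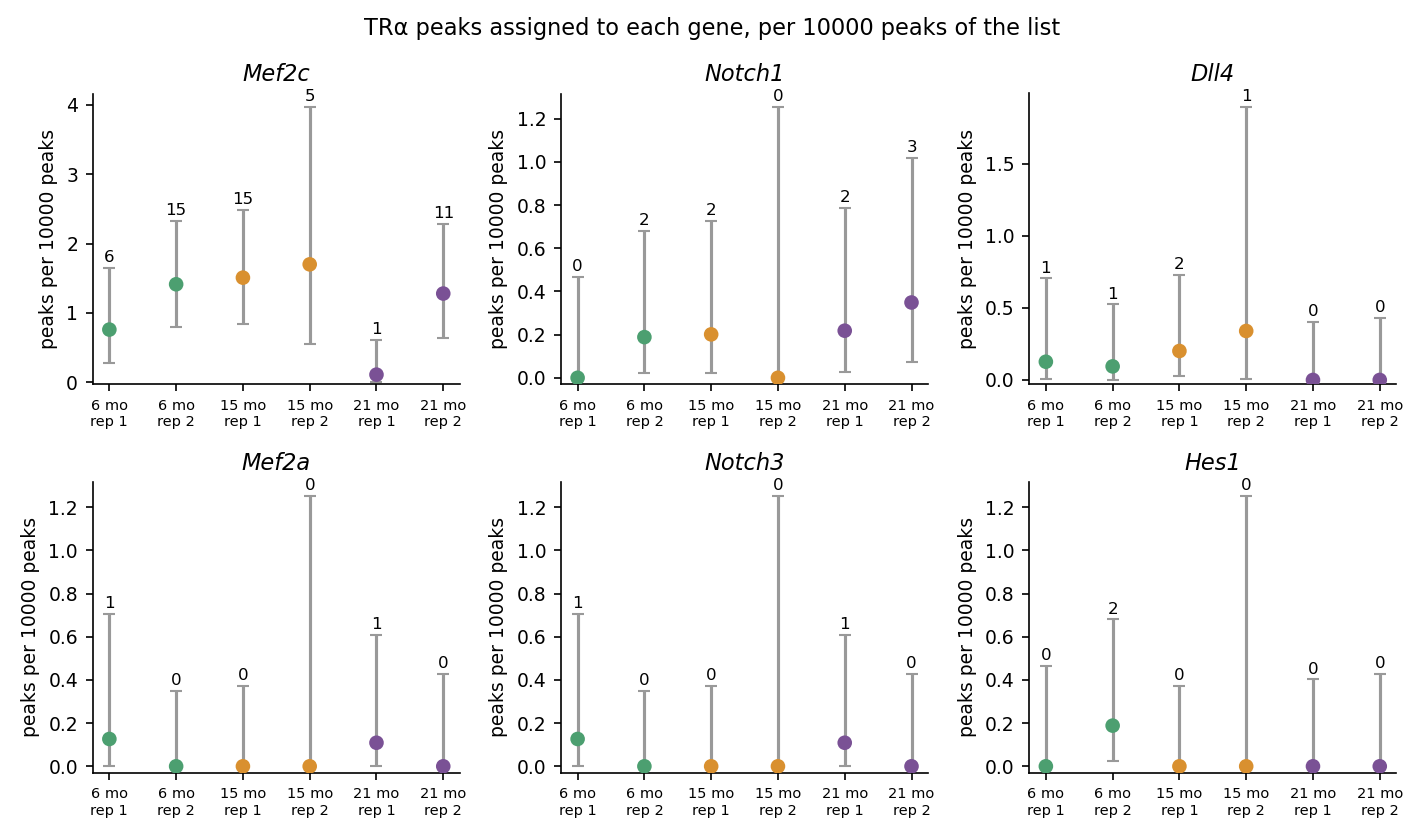
Number of peaks assigned to each gene per 10000 peaks of the list (y axis) for each mouse (x axis, coloured by age). Bars are 95% exact Clopper-Pearson intervals, topped by the number of peaks, with Mef2c at 15 or fewer and the other 5 genes at 3 or fewer in any mouse.

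The stretch of 246 kb was the longest of the 6 genes. Over all lists it held 21.5 peaks per 100 kb, against 19.0 per 100 kb between the first and last peak of chromosome 13, a ratio of 1.13. In single mice the ratio was 0.768 and 1.5 in young, 1.59 and 1.75 in middle-aged, and 0.117 and 1.35 in old mice. Thus 4 mice had more peaks than the chromosome's rate gives, and replicate 1 at both 6 and 21 months had fewer. Over all lists the same ratio was 1.18 for Notch1, 1.16 for Notch3, 0.861 for Hes1, 4.30 for Dll4 and 5.35 for Mef2a, the last 4 from 2 to 5 peaks each. The ends of each stretch were set by the peaks themselves, which works towards a higher density, most of all in short stretches of few peaks.

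**Figure D3:**
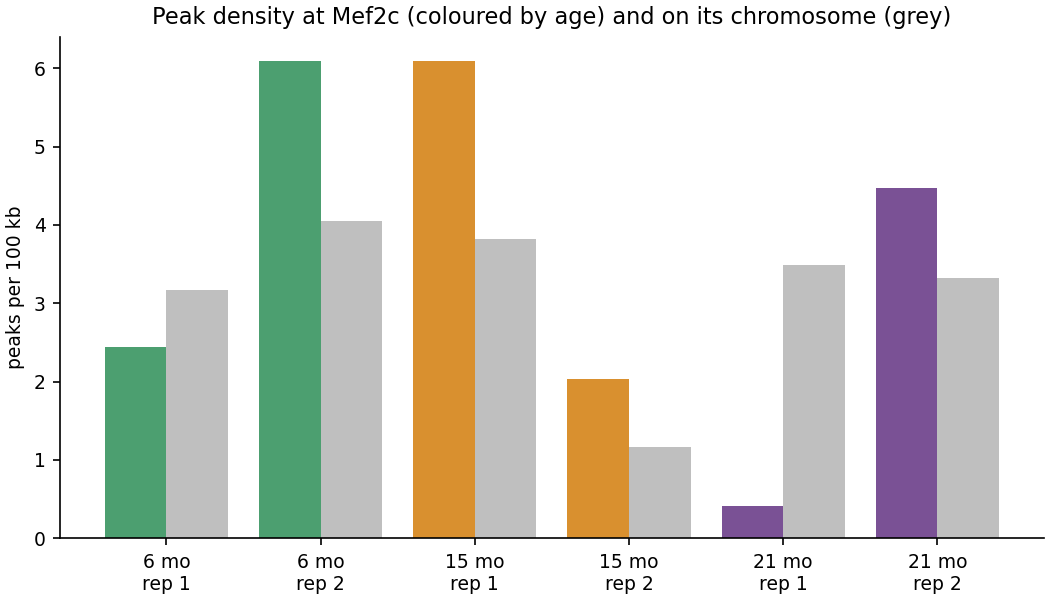
Peaks per 100 kb (y axis) in the stretch with Mef2c peaks (bars coloured by age) and on the whole of chromosome 13 (grey bars) for each mouse (x axis). The stretch exceeds the chromosome in 4 mice and falls below it in replicate 1 at 6 months and replicate 1 at 21 months, where it is 0.407 against 3.49.

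Within the stretch the Mef2c peaks were scattered, and few positions recurred. The median distance between neighbouring summits over all lists was 3325 bp and the longest was 22588 bp. In replicate 2 at 15 months 4 of the 5 peaks lay within 15.7 kb, from 83526297 to 83541959. The summit nearest to a given one in another mouse was a median of 2773 bp away. The 53 peaks formed 50 regions when peaks overlapping by at least 1 bp were merged, and 3 of the 50 (6.00%) held peaks of 2 mice, against 6.40% of all 458111 regions of the series.

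The region in both mice of one age lay at 83568405 to 83569099 on chromosome 13. Replicate 1 at 6 months had 7 fragments and a fold of 2.62 there, and replicate 2 at 6 months had 4 fragments and a fold of 2.90. The summits were 10 bp apart and the peaks shared 143 bp. A region at 83571257 to 83571698 joined replicate 2 at 6 months (fold 3.23) with replicate 2 at 21 months (fold 2.71), with summits 52 bp apart. At 83638448 to 83638978 the same 2 mice overlapped by 14 bp, with summits 233 bp apart and folds of 3.02 and 2.34.

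**Figure D4:**
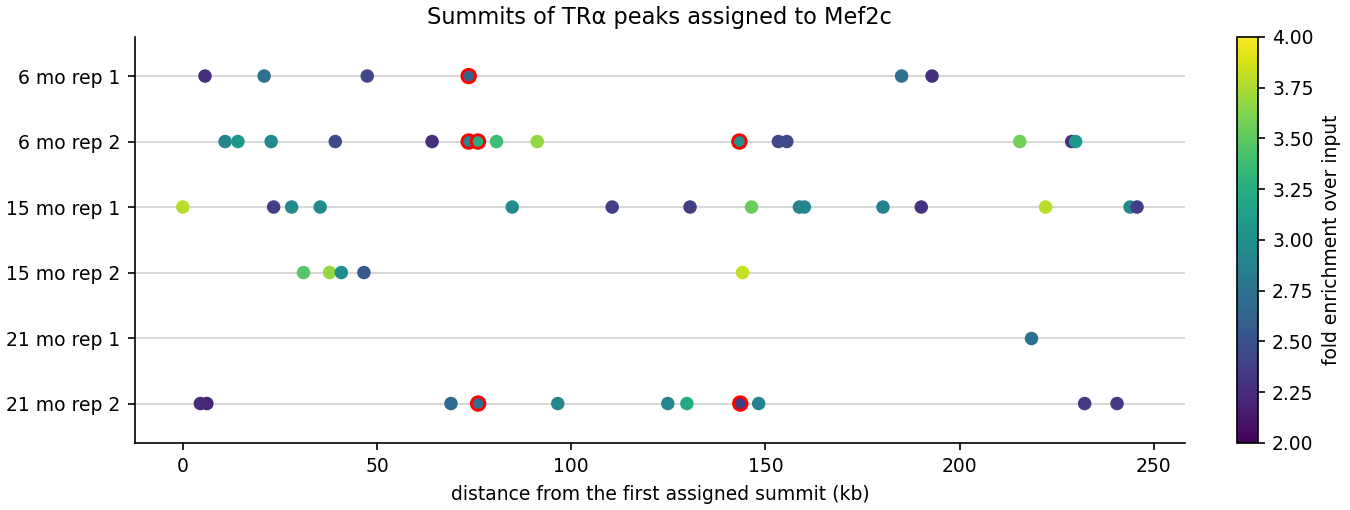
Summits of the 53 peaks assigned to Mef2c, by distance from the first summit in kb (x axis) and by mouse (y axis), coloured by fold enrichment. Red rims mark the 3 regions with peaks of 2 mice, and replicate 1 at 21 months has a single peak.

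Mef2a, the paralogue that is abundant in differentiated muscle and heart, had 2 peaks. Replicate 1 at 6 months had 1 peak on chromosome 7 at 67023288 to 67023638, with 6 fragments and a fold of 3.19. Replicate 1 at 21 months had 1 peak at 67025023 to 67025238, with 4 fragments and a fold of 2.76. The other 4 mice had none, which allows up to 0.283 to 1.02 peaks per 10000. The summits were 1758 bp apart, and the nearest other peaks, 17.4 kb and 35.1 kb away, carried no gene name. How the authors chose the gene of a peak is not given in the sources used here, so peaks of Mef2a without such text may have been missed.

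Among the receptors, Notch1, which restrains satellite cell differentiation and shapes arteries, had 9 peaks in 4 mice. They lay on chromosome 2 between 26385892 and 26424883 (GRCm39), a stretch of 39.0 kb in which no other peak was found. Young mice had 0 and 2 of them, middle-aged mice 2 and 0, and old mice 2 and 3. Per 10000 peaks of the list these came to 0 and 0.188 in young, 0.201 and 0 in middle-aged, and 0.218 and 0.349 in old mice. Both mice at 21 months were above the other 4, but by at most 1 peak in number over the next mouse, and all intervals overlapped.

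Pearson's r of Notch1 with age was 0.58 (exact permutation p = 0.256, adjusted p = 1) and rho was 0.79 (p = 0.0889 in the exact permutation, adjusted p = 1). Without the young mice r was 0.73, from 2 mice at each age left, and was not tested. The direction was the same without any 1 mouse, with r from 0.37 to 0.79. A rise with age was not shown by this test. The best Notch1 peak lay at 26417298 to 26417612 in replicate 2 at 21 months, with 5 fragments and a fold of 3.51. No position of Notch1 was shared, and the closest summits of 2 mice were 2683 bp apart. The stretch held 23.1 peaks per 100 kb over all lists, against 19.6 on chromosome 2.

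Notch3, a receptor of vascular smooth muscle cells and pericytes that is also found on satellite cells, had 2 peaks on chromosome 17. Replicate 1 at 6 months had 1 at 32381498 to 32381741, with 5 fragments and a fold of 2.73. Replicate 1 at 21 months had 1 at 32372014 to 32372344, with 4 fragments and a fold of 2.76. The 2 mice were those that had the Mef2a peaks, so both genes have the same values per list. For each, r was -0.12 (p = 0.8 by exact permutation, adjusted p = 1) and rho -0.14 (p = 0.933 by exact permutation, adjusted p = 1), and r was 0.58 without the young mice and 0.49 without replicate 1 at 6 months. In both of these cases 1 peak of each gene was left, in replicate 1 at 21 months, and its place alone sets r.

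Dll4, the Notch ligand best known from the endothelial cells of sprouting vessels, had 5 peaks on chromosome 2 between 119138956 and 119144878. Young mice had 1 and 1, middle-aged mice 2 and 1, and old mice 0 and 0. Scaled to 10000 peaks, these were 0.127 and 0.0942 in young, 0.201 and 0.340 in middle-aged, and 0 in old mice, where a count of 0 allows up to 0.327 and 0.349 (3 counts). All 4 younger mice had a peak and neither old mouse did, but the exact Clopper-Pearson intervals of all 6 mice overlapped, reaching 0.402 and 0.429 in the old mice.

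Of the named genes, 3.04% had peaks in both young mice and no old mouse, and 2.03% in both middle-aged mice and no old mouse. Dll4 was the only one of the 6 genes with either pattern. None of the 6 showed such a pattern in the remaining directions, where the shares of named genes were 3.29% (young but not middle-aged), 2.03% (middle-aged but not young), 2.28% (old but not young) and 4.56% (old but not middle-aged). For Dll4 against age, r was -0.28 (p = 0.589 by exact permutation, adjusted p = 1) and rho -0.49 (p = 0.33 by exact permutation, adjusted p = 1), with r = -0.94 without the young mice. This last value was not tested and rests on 2 and 1 peaks at 15 months against 0 and 0 at 21 months. Its highest rate came from 1 peak in the shortest list, replicate 2 at 15 months. The sign turned when only peaks with a pileup of at least 5 were kept (r = 0.11) and with lists of equal length (r = 0.11).

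Dll4 also held the one region of these genes with peaks in 3 mice, at 119142059 to 119142471 on chromosome 2. This was 1 of the 68 regions of the 6 genes, and 3058 of all 458111 regions held peaks of 3 or more mice. In the Dll4 region, the peak of replicate 1 at 15 months lay at 119142271 to 119142464, with 4 fragments and a fold of 2.95. It fell wholly inside the peak of replicate 2 at 15 months, at 119142254 to 119142471, with 5 fragments and a fold of 3.09. Their summits were 37 bp apart. The peak of replicate 2 at 6 months, with 3 fragments and a fold of 2.30, reached the latter by 14 bp and the former not at all. A region with peaks in both mice of an age was found for 8.35% of the named genes, and for Mef2c and Dll4 among these 6. A region with peaks in 2 or more mice was found for 28.4% of the named genes, and again for Mef2c and Dll4. Over the 6 genes, 4 of 68 regions (5.88%) held peaks of 2 or more mice, and this fell to 1 region without replicate 2 at 6 months and to 2 without replicate 2 at 21 months.

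**Figure D5:**
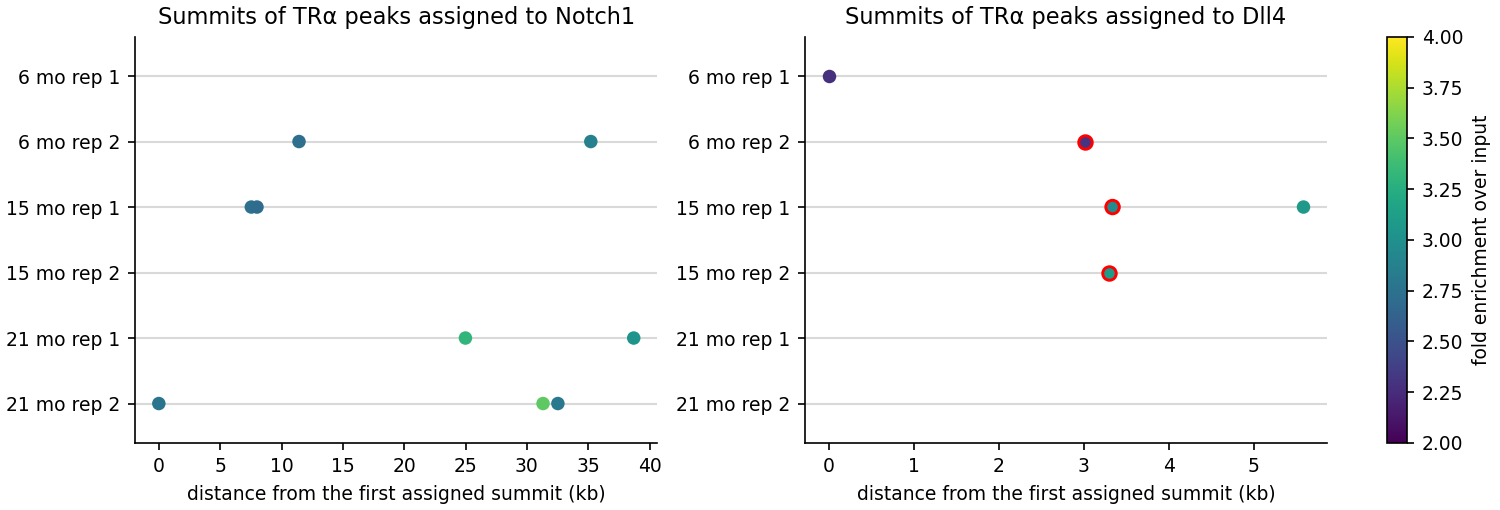
Summits of the peaks assigned to Notch1 (left, 9 peaks) and Dll4 (right, 5 peaks), by distance from the first summit in kb (x axis) and by mouse (y axis), coloured by fold enrichment. Red rims mark the Dll4 region with peaks in 3 mice, and neither mouse at 21 months has a Dll4 peak.

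Hes1, a transcriptional repressor that Notch signalling turns on, had 2 peaks, both in replicate 2 at 6 months. They lay on chromosome 16 at 29880271 to 29880582 and at 29892184 to 29892405, with 4 fragments each and folds of 2.82 and 3.06. The other 5 mice had none. Against age, r was -0.58 (p = 0.33 by exact permutation, adjusted p = 1) and rho -0.55 (p = 0.667 by exact permutation, adjusted p = 1), and without the young mice no value was left to correlate. Any gene with peaks in 1 young mouse only has these same values, however many its peaks, so they say nothing more about age.

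Over the 6 genes together the lists of young mice held 9 and 20 peaks, those of middle-aged mice 19 and 6, and those of old mice 5 and 14. Per 10000 peaks this was 1.14 and 1.88 in young, 1.91 and 2.04 in middle-aged, and 0.545 and 1.63 in old mice. The means were 1.51 ± 0.527, 1.98 ± 0.0917 and 1.09 ± 0.766 (SD, n = 2 each). Young and old mice overlapped, and the middle-aged mice, though the highest of the 6, were close to replicate 2 of the young mice. Peaks in both mice were found for 2 of the 6 genes at each age, Mef2c and Dll4 at 6 months, the same 2 at 15 months, and Mef2c and Notch1 at 21 months. The share among all named genes was 43.3% at 6 months, 32.9% at 15 months and 43% at 21 months. None of the 395 genes had a trend with age at an adjusted p of at most 0.05 in the exact permutation test (0%), and 9 did at an unadjusted p of at most 0.05, 1 rising (0.253%) and 8 falling (2.03%), with none of the 6 genes among them. The smallest p that 90 assignments can give is 0.0111, and at least 88 of the 395 genes would have had to be at or near it for any adjusted p of 0.05, so the lack of adjusted calls says little about these genes.

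Other genes of the Notch pathway are given for 5 of 31 looked up, with 46 peaks in all. Fbxw7, a ubiquitin ligase subunit that marks the Notch intracellular domain for decay, had 17 peaks, 0 and 4 in young, 4 and 1 in middle-aged, and 5 and 3 in old mice. Rbpj, the DNA-binding partner of the cleaved receptor, had 12 peaks, 0 and 2 in young, 3 and 1 in middle-aged, and 3 and 3 in old mice. The receptor Notch2 had 7 peaks and the ligand Dll1 had 3. Psen2, a catalytic subunit of the γ-secretase that frees the intracellular part of Notch, had 7.

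Pearson's r with age was 0.84 for Rbpj (p = 0.0222 by exact permutation), 0.65 for Fbxw7 (p = 0.156), 0.58 for Notch2 (p = 0.222), 0.39 for Psen2 (p = 0.478) and 0.03 for Dll1 (p = 1), each with an adjusted p of 1. In the same order rho was 0.84 for Rbpj (p = 0.0667 by exact permutation), 0.48 for Fbxw7 (p = 0.4), 0.79 for Notch2 (p = 0.0889), 0.36 for Psen2 (p = 0.533) and -0.13 for Dll1 (p = 1), again each with an adjusted p of 1. Without the young mice r, which was not tested, was 0.48 for Rbpj, 0.46 for Fbxw7, 0.67 for Notch2, 0.70 for Psen2 and -0.40 for Dll1. Replicate 1 at 6 months, the list of weakest enrichment, had peaks of only Psen2 and Dll1 among them. Without that mouse r was 0.90 for Rbpj, 0.37 for Fbxw7, 0.48 for Notch2, 0.47 for Psen2 and 0.12 for Dll1, with exact permutation p from 0.0667 to 0.9. Of the 46 peaks 1 had a q of at most 0.05, a peak of Fbxw7, whose highest fold was 4.50. No count of directions is given for the 5, because the list is not reported whole.

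Other genes of myogenic control were named for 6 of a list of 30, with 43 peaks, none of which had a q of at most 0.05. Hdac4, a class IIa histone deacetylase that binds and silences Mef2 proteins, had 17 peaks, 2 and 4 in young, 3 and 1 in middle-aged, and 4 and 3 in old mice. Its class IIa relative Hdac7 had 7 peaks. Srf, another MADS-box factor of muscle genes, had 8, the acetyltransferase Crebbp 5, Hdac1 3 and the p38α kinase Mapk14 3. Their r with age was above 0 in 5 of the 6, Crebbp being the exception at -0.28, with a median of 0.27. Among the 395 named genes r was above 0 in 210, with a median of 0.03, and in 171 without replicate 1 at 6 months. Whether the 6 differ from the named genes was not tested. None of the 6 passed the adjusted test in either direction. Of the 24 other members of this list, among them Myod1, Myog, Pax7 and Mef2d, the peaks were not analysed here, since no annotation text named them.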

How the data were processed

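TRα ChIP-seq peak lists of 6 mice were used, 1 list per mouse. The submitters' processing notes name MACS2 2.1.1.20160309, HOMER 3, SAMtools 1.3.1, Trimmomatic 0.36 and the builds GRCm39 and mm10. Aligner and caller options were not given in the sources used here. Scaffold names in the lists, such as MU069435.1, belong to GRCm39. The deposited pileup is a signal in fragments at the summit, and the deposited fold enrichment is a ratio to the local input background. The background was computed here from pileup and fold, with 1 taken as added to both terms of the ratio. The p and q values were deposited as −log10 values, and no list held a p above 0.01. They are the authors' own values for each peak and serve here to describe and filter peaks of the same list.

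Genes were matched from protein accessions in the annotation text to a GRCm38.p6 names table, used for names only. Such text is present only for genes with long annotation, so peaks of the 6 genes may be incomplete. The number of peaks per 10000 peaks of the list was the value per mouse. Age was tested by Pearson's r and Spearman's rho with two-sided exact permutation over 90 assignments for all 395 named genes, with Benjamini-Hochberg adjustment. The permutation test of Pearson's r was run on simulated data with far more peaks per gene than these lists hold. Its power at the counts seen here was not tested. Between 2 ages the smallest possible p is 0.33, so ages were not tested in pairs. For the same reason r without the young mice, which compares 2 ages, is given without a test. Read totals were not used here, so depth is known only from list lengths. Regions were merged at an overlap of at least 1 bp. Python 3.11.15, numpy 2.4.6, pandas 2.3.3 and scipy 1.17.1 were used.

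Alternatives were limits on q and pileup, equal list lengths, other scalings and overlaps, a replicate block and leaving out each mouse. Members, gene lists and tests were chosen with earlier results of these data known. Besides the 6 genes, the named genes of the 2 other lists, except 1 Notch pathway gene that is not reported here, and the 2 genes most alike each member are given, the latter with at least 20 peaks for members in at least 4 mice.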

Additional observations from a re-analysis of the deposited data

How the results depend on the processing

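Adjusted p for the 6 genes against age was 0.873 or higher under all settings run, but with 6 mice and 90 assignments the adjusted threshold was practically out of reach, so this says nothing about stability. The sign of r turned for Dll4 with a pileup of at least 5 (0.11) and with equal list lengths of 29405 peaks (0.11). Leaving out 1 mouse gave r from -0.52 to 0.44 for Mef2c and from -0.57 to 0.49 for Mef2a and for Notch3. The cause was not tested. With q of at most 0.05, 0 genes had peaks in both mice at 6, at 15 and at 21 months, and no r could be computed. Nor could r for Hes1 with a pileup of at least 5, for Hes1 and Notch3 with equal list lengths, or for Hes1 without replicate 2 at 6 months. The number of genes with peaks in both mice, at a pileup minimum of 5, was 1 at 6 and 1 at 21 months, and with equal list lengths 0 at 6 and 1 at 21 months, in each case from fewer peaks. Regions with peaks in 2 or more mice numbered 4, but 2 at an overlap of 50% of both peaks, 7 when peaks up to 500 bp apart were joined, 1 with a pileup of at least 5 and 0 with q of at most 0.05. Without 1 mouse they numbered 1 to 4, with 1 without replicate 2 at 6 months and 2 without replicate 2 at 21 months. With the replicate block, r was -0.28 for Mef2c, 0.59 for Notch1 and -0.28 for Dll4, and no call was made with or without it. Same-numbered mice correlated at -0.11 to 0.00448. These values were identical for replicates 1 and 2, as must happen when each of 2 mice is a deviation from its age mean. They are therefore not 2 separate checks and do not measure how alike whole mice are. With 2 mice per age and so few peaks per gene, this check cannot show whether the numbers pair the mice. At 3 to 7 fragments a peak, the lack of a peak in a list does not show lack of binding.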

Other observations

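Among named genes with at least 20 peaks, those whose peaks per 10000 peaks over the 6 mice were most like the members' were found by Pearson's r, as a description over mice that share list depth. For Mef2c these were Edn1, which encodes the vasoconstrictor endothelin-1 (r = 0.96), and Cd36, a fatty acid transporter (r = 0.73). Edn1 had 2 and 6 peaks in young, 5 and 2 in middle-aged, and 1 and 5 in old mice, with the same low value in replicate 1 at 21 months as Mef2c. For Dll4 they were Nfkb1, an NF-κB subunit (r = 0.98), and Nos1, the neuronal nitric oxide synthase (r = 0.96). Both had peaks in all 6 mice, 2 and 2 for Nfkb1 and 4 and 4 for Nos1 at 21 months, where Dll4 had none. For Notch1 they were Traf6, a ubiquitin ligase (r = 0.90), and Flt1, a receptor of vascular endothelial growth factor (r = 0.79). These genes were taken from 53 or 54 candidates per member, and nothing about shared function or control was tested.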
